A study of Mus musculus with 18 samples.

Results

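Chemokines and interleukins are secreted proteins by which cells call and instruct leukocytes, and bone cells use the same signals to talk to osteoclasts and to marrow. The genes were chosen by symbol: CC chemokines (*Ccl* and a number), CXC chemokines (*Cxcl* and a number), numbered interleukins, *Cx3cl1* and the interleukin-6 family member *Lif*, without *Cxcl12*, *Il34* and *Il17b*. The rule found 57 genes among the 20198 genes of the count tables. Of these, 42 were listed among 17173 genes for fresh bone, 51 among 16966 for bone chips and 56 among 19777 for the cells made from embryonic stem cells (ESC), and 40 were in all 3 tables.

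RNA sequencing read counts were given for 18 libraries in 6 populations of 3 libraries. All of the bone cells came from Col2.3GFP transgenic mice, in which a fragment of the *Col1a1* promoter drives green fluorescent protein (GFP) in maturing osteoblast lineage cells. Mature osteoblasts sorted as GFP+ (hi), called GFP+ cells here for bone, were set against sorted GFP- cells, a heterogeneous population. This was done once for cells sorted fresh from mouse long bone and once for cells from bone chips cultured under osteogenic differentiation. In the third source, GFP+ cells made from ESC by osteogenic differentiation (ESC-OB GFP+) were set against ESC, which are another cell type and not a GFP- fraction. The treatment label of the ESC libraries also names osteogenic differentiation. They were kept as ESC by their titles, and 4 ESC markers summed to 3.01 to 7.95 counts scaled to 1e+06 a library (CPM) in ESC-OB GFP+ and 2901 to 3683 CPM in ESC libraries. The labels give no age or sex and do not say that the libraries of a population came from separate animals or cultures. The p-values thus measure the spread between these libraries, which may be technical. The bone GFP+ libraries differed among themselves in Y-linked genes, as given below.

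Chemokines bind G-protein coupled receptors and make cells move along their gradient. CXC chemokines with an ELR sequence, among them *Cxcl1*, *Cxcl2*, *Cxcl3* and *Cxcl5*, attract neutrophils through CXCR2, whereas *Ccl2* and *Ccl7* attract monocytes through CCR2. Interleukins of the interleukin-6 family (*Il6*, *Il11* and *Lif*) share the receptor chain gp130, encoded by *Il6st*, signal through JAK and STAT proteins and are known to act on osteoblasts and osteoclasts. Many of these genes are switched on together by the transcription factor NF-kB when cells are stimulated or stressed.

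Several members lie side by side in the mouse genome. On chromosome 5 of mm9, *Cxcl5*, *Cxcl3*, *Cxcl15*, *Cxcl1* and *Cxcl2* lie between 91188325 and 91334935, a span of 146.6 kb. On chromosome 11, *Ccl2*, *Ccl7*, *Ccl11*, *Ccl12* and *Ccl8* lie between 81849073 and 81930301, and *Ccl5*, *Ccl9*, *Ccl6*, *Ccl3* and *Ccl4* between 83339280 and 83478185. *Cxcl9*, *Cxcl10* and *Cxcl11* share a 44.2 kb stretch of chromosome 5.

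The promoters of 3 chemokine genes of the first chromosome 5 cluster and of *Il6* are shown, and are among those that hold the motif marked below. The promoter of *Cxcl15*, of the same cluster, did not hold it. Each is the 120 bases before the start of the gene on the plus strand of GRCm38.p6, from RefSeq, written 5′ to 3′, at chr5:90891125-90891244 for *Cxcl1*, chr5:90903779-90903898 for *Cxcl2*, chr5:90785981-90786100 for *Cxcl3* and chr5:30012994-30013113 for *Il6*. Capitals mark a match on either strand to an NF-kB motif, GGG followed by any 2 bases and TTTCC.
Cxcl1: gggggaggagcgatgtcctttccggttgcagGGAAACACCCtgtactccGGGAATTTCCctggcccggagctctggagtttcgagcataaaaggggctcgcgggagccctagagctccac
Cxcl2: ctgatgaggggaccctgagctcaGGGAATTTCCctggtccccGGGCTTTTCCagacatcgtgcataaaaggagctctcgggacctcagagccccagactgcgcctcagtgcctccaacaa
Cxcl3: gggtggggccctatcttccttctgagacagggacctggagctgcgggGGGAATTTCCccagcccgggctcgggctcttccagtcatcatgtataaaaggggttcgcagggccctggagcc
Il6: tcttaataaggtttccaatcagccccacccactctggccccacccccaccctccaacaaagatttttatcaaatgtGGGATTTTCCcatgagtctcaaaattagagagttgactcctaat
Searched on both strands over 250 bases before to 50 after the start, this motif was in 535 of 32851 mouse promoters (1.63%). The 40 members with an entry had 47 promoters, of which 7 held it, those of *Ccl20*, *Ccl9*, *Cxcl1*, *Cxcl2*, *Cxcl3*, *Il16* and *Il6*. The AP-1 motif TGANTCA was in 7.81% of all promoters and in 9 of the 47, those of 9 members, and *Ccl9* and *Il6* held both motifs without overlap. *Ccl2*, *Ccl5*, *Ccl7*, *Cxcl5*, *Il15* and *Il7* had no entry. The genes shown changed in all the sources in which they were tested. So did others, among them *Cxcl10*, *Il11*, *Il16* and *Il18*, of which only *Il16* held the NF-kB motif. The match is a description of letters and not of a binding site.

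Library totals were 21425212 to 43874837 counts in bone GFP+ and 5482065 to 6468750 in bone GFP- libraries, 13228266 to 15221973 in chip GFP+ and 9829832 to 17553194 in chip GFP- libraries, and 20680956 to 26601417 in ESC-OB GFP+ and 4920977 to 21215099 in ESC libraries. *Col1a1*, which carries the promoter of the reporter, took 36.2% to 37.5% of the counts of bone GFP+ libraries against 0.805% to 1.59% of bone GFP- libraries. All 9 osteoblast markers were higher in GFP+ cells of both bone sources. Against ESC, ESC-OB GFP+ libraries were higher for the osteoblast markers *Col1a1*, *Ibsp*, *Runx2*, *Dmp1* and *Phex* and lower for *Alpl*. *Bglap*, *Bglap2* and *Sp7* had too few counts there to test. The 9 markers summed to 3001 to 8823 CPM in ESC-OB GFP+ and 248 to 417 CPM in ESC libraries. In fresh bone the 5 chondrocyte markers summed to 1705 to 4161 CPM in GFP+ and 90211 to 187999 CPM in GFP- libraries. ESC markers summed to 10.5 to 13.9 CPM in bone GFP+ libraries and to at most 0.117 CPM in bone GFP- libraries. Y-linked genes had 6, 913 and 9 counts in the bone GFP+ libraries and 625 to 1167 in the bone GFP- libraries. The bone GFP+ libraries thus did not share the same make-up by sex, and libraries 1 and 3 differed in it from the bone GFP- libraries. The part of these differences in the results below was not tested.

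Chemokine and interleukin messages were a small and unevenly shared part of the RNA. They made up 0.00513% to 0.00550% of all counts in bone GFP+ libraries against 0.0471% to 0.0624% in bone GFP- libraries. In bone chips they made up 0.0447% to 0.0883% in GFP+ against 0.293% to 0.483% in GFP- libraries. In both sources the GFP- cells held the larger share. In ESC-OB GFP+ libraries the share was 0.0697% to 0.172%, against 0.00244% to 0.00365% in ESC libraries. These are shares of raw totals, of which *Col1a1* took a large part in bone GFP+ libraries. The ribosomal RNA gene *Rn45s* took 8.01% to 12.5% of the counts of chip libraries and 5.72% to 7.95% of ESC libraries. It took 0.0561% to 0.342% in fresh bone libraries and 0.290% to 0.690% in ESC-OB GFP+ libraries. On the CPM scale used below the differences in bone were smaller. The members summed to 72.1 to 80.6 CPM in bone GFP+ against 333 to 472 CPM in bone GFP- libraries. In bone chips they summed to 559 to 1072 CPM in GFP+ against 2513 to 3932 CPM in GFP- libraries. In sorted bulk cells, fewer cells of a type and less RNA per cell cannot be told apart.

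In fresh bone, most of the chemokines and interleukins with enough counts were lower in mature osteoblasts than in GFP- cells, and only the interleukin-12 subunit gene *Il12a* and *Lif* were higher. Of the 42 listed genes, 20 passed the filter on low counts. With edgeR's quasi-likelihood test and Benjamini-Hochberg adjustment over all 12559 genes tested, 2 were higher and 12 lower at an adjusted p under 0.05, against 19.5% higher and 22.1% lower over all genes. The median log2 fold change (log2FC) of the 20 was -2.23, beside -0.0013 over all genes. The other 22 had at most 26 counts over the 6 libraries. Scaled by total counts in place of trimmed mean of M-values (TMM) factors, the median of all genes was -1.06, 1 member was called higher and 14 lower, and the split over all genes was 696 higher and 7789 lower in place of 2455 and 2776.

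The interleukins *Il11*, *Il16* and *Il17d* and the chemokine *Cxcl14* stood at 30.1 CPM or more in every GFP- library and at 7.15 CPM or less in every GFP+ library. *Il11*, a gp130 cytokine known to promote bone formation in mice, had 2.18, 1.30 and 0.0963 CPM in GFP+ against 36.6, 30.1 and 47.3 CPM in GFP- libraries (log2FC -4.93 ± 0.62 SE, adjusted p = 0.000223). *Il16*, whose product attracts CD4+ cells, had 2.50, 2.60 and 0.385 CPM in GFP+ against 44.2, 41.1 and 62.5 CPM in GFP- libraries (log2FC -4.75 ± 0.51 SE, adjusted p = 8e-05). The groups of libraries were far apart for both genes, and GFP+ library 3 was the lowest. *Cxcl14* had 7.15, 6.42 and 3.03 CPM in GFP+ against 93.1, 125 and 177 CPM in GFP- libraries (log2FC -4.56 ± 0.36 SE, adjusted p = 1.2e-05). *Il17d* had 2.47, 2.94 and 5.06 CPM in GFP+ against 70.9, 46.3 and 67.8 CPM in GFP- libraries (log2FC -4.15 ± 0.31 SE, adjusted p = 8.05e-06). These 4 genes were also the members with the largest summed counts in the GFP- cells beside *Cxcl1*.

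Of the neutrophil-attracting chemokines, *Cxcl1* and *Cxcl2* were called lower in osteoblasts, and *Cxcl3* (0 counts in GFP+ against 2 in GFP- libraries) and *Cxcl5* (2 against 7) had too few counts to test. *Cxcl1* had 12.1, 12.9 and 8.04 CPM in GFP+ against 34.3, 30.5 and 48.5 CPM in GFP- libraries (log2FC -1.78 ± 0.25 SE, adjusted p = 0.000416). *Cxcl2* had 0.705, 0.342 and 0.144 CPM in GFP+ against 1.10, 1.14 and 5.73 CPM in GFP- libraries (log2FC -2.67 ± 0.87 SE, adjusted p = 0.0332), and the third GFP- library held most of its counts. Without that library the log2FC of *Cxcl2* was -1.43 and its adjusted p 0.261, the highest of the 3 left-out libraries that cost it its call. In the first GFP- library the neutrophil markers summed to 210.1 CPM, against 4.58 and 5.73 CPM in the other GFP- libraries and 2.24 to 49.1 CPM in GFP+ libraries. *Cxcl1* and *Cxcl2* were highest in the third GFP- library. The part of neutrophils in these values was not tested.

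The remaining lower genes had fewer counts. *Cxcl10*, an interferon-inducible chemokine that attracts T cells, had 0.128, 0.137 and 0.0482 CPM in GFP+ against 1.32, 1.72 and 3.98 CPM in GFP- libraries (log2FC -4.38 ± 0.77 SE, adjusted p = 0.0016). *Il18*, an interleukin-1 family cytokine, had 0.417, 0.205 and 0 CPM in GFP+ against 2.20, 2.97 and 2.81 CPM in GFP- libraries (log2FC -3.56 ± 0.88 SE, adjusted p = 0.01). *Cxcl16*, a transmembrane chemokine, had 0.513, 1.16 and 1.35 CPM in GFP+ against 4.51, 5.83 and 4.21 CPM in GFP- libraries (log2FC -2.28 ± 0.51 SE, adjusted p = 0.00573). None of the libraries of these 3 genes overlapped between the populations. *Il6* had 0.866, 3.35 and 0.722 CPM in GFP+ against 4.07, 5.38 and 8.66 CPM in GFP- libraries (log2FC -1.91 ± 0.64 SE, adjusted p = 0.0372). This call was lost when any of 5 of the 6 libraries was left out, at adjusted p-values of 0.054 to 0.144, the exception being GFP+ library 2. *Ccl11* had 1 count in the GFP+ libraries against 24 in the GFP- libraries. *Ccl19* was called lower too (log2FC -2.75 ± 0.73 SE, adjusted p = 0.014), but 96.27% of its 75-base stretches occur in near-identical copies of the gene, so its counts are uncertain, and the call was lost without GFP- library 2 or 3 or GFP+ library 1 (adjusted p of 0.0559 to 0.0827).

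Both of the genes called higher in fresh osteoblasts were at a modest level. *Il12a*, which encodes the p35 subunit shared by interleukins 12 and 35, had 5.42, 9.50 and 6.50 CPM in GFP+ against 1.76, 0.114 and 0.234 CPM in GFP- libraries (log2FC 3.31 ± 0.76 SE, adjusted p = 0.00673). *Lif*, which keeps mouse ESC undifferentiated and acts on bone cells, had 11.3, 7.72 and 13.0 CPM in GFP+ against 4.18, 3.77 and 5.97 CPM in GFP- libraries (log2FC 1.21 ± 0.32 SE, adjusted p = 0.0142). The call on *Lif* was narrow: leaving out GFP- library 1 or 2 gave adjusted p-values of 0.0503 to 0.0507, and scaling by total counts gave a log2FC of 0.17 (adjusted p = 0.661).

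The monocyte-attracting *Ccl2* and *Ccl7* and the fractalkine gene *Cx3cl1* were not called in fresh bone. *Ccl2* had 9.81, 9.57 and 3.08 CPM in GFP+ against 3.19, 3.89 and 2.46 CPM in GFP- libraries, so that GFP+ library 3 fell among the GFP- libraries (log2FC 1.23 ± 0.48 SE, adjusted p = 0.0637). Without that library *Ccl2* was called higher (log2FC 1.61, adjusted p = 0.00239). *Ccl7* had 2.95, 5.53 and 15.0 CPM in GFP+ against 5.50, 9.27 and 9.83 CPM in GFP- libraries (log2FC -0.07 ± 0.54 SE, adjusted p = 0.936). *Cx3cl1* had 8.37, 11.8 and 17.6 CPM in GFP+ against 15.7, 21.6 and 14.9 CPM in GFP- libraries (log2FC -0.47 ± 0.30 SE, adjusted p = 0.239). *Il15*, *Il33* and *Ccl25* were not called either, at adjusted p-values of 0.0534, 0.875 and 0.644. The macrophage genes were near absent from fresh bone: *Ccl3* had 0 counts in GFP+ against 5 in GFP- libraries and *Il1b* 1 against 12, and the 8 monocyte and macrophage markers summed to 4.30 to 18.3 CPM in GFP+ against 24.7 to 36.8 CPM in GFP- libraries.

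**Figure D1:**
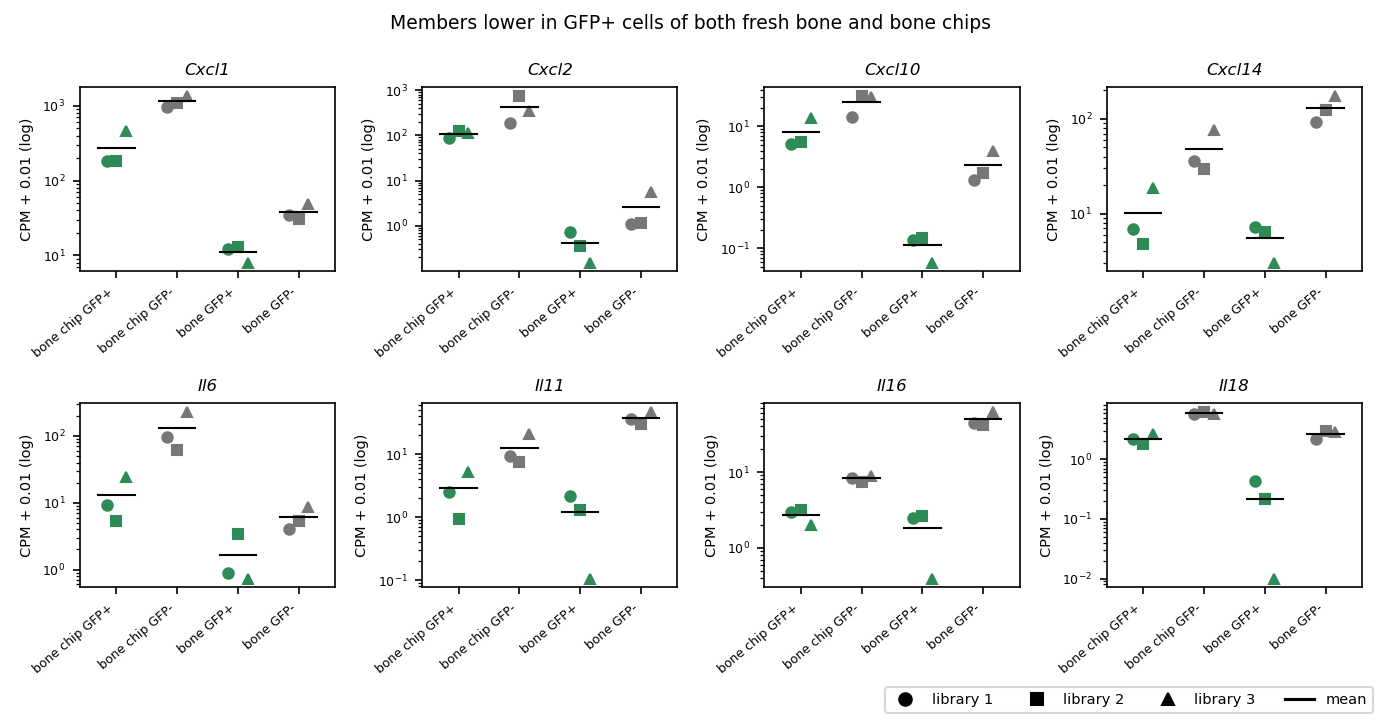
CPM on a log axis, with 0.01 CPM added, of the 8 genes called lower in GFP+ cells of both fresh bone and bone chips (*Cxcl1*, *Cxcl2*, *Cxcl10*, *Cxcl14*, *Il6*, *Il11*, *Il16*, *Il18*). Points are libraries, their shape is the library number, and lines are means of 3. Within each source the GFP+ libraries lie below all GFP- libraries, as for *Cxcl1* at 8.04 to 12.9 CPM against 30.5 to 48.5 CPM in fresh bone, and CPM was scaled within each source.

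In bone chip cultures none of the chemokines and interleukins tested was called higher in osteoblasts and most were lower. Of the 51 listed genes, 29 passed the filter, and with edgeR's test 0 were higher and 17 lower, against 20.4% higher and 23.1% lower of all 12841 genes. At an unadjusted p under 0.05, 0 were higher and 18 lower, and DESeq2 called 0 higher and 17 lower. All 29 log2FC were negative, with a median of -1.75 beside -0.04 over all genes. The 22 genes not tested had at most 81 counts over the 6 libraries. Scaled by total counts, the median of all genes was -0.60, 0 members were higher and 20 lower, and the split over all genes was 1058 higher and 7921 lower in place of 2614 and 2967.

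All 4 neutrophil-attracting chemokines tested were lower in GFP+ cells, and the group's *Cxcl15*, with 2 counts in GFP+ against 4 in GFP- libraries, was not tested. *Cxcl5* had 13.9, 18.3 and 25.2 CPM in GFP+ against 248, 188 and 606 CPM in GFP- libraries (log2FC -4.18 ± 0.51 SE, adjusted p = 0.000807). *Cxcl3* had 1.51, 2.41 and 5.58 CPM in GFP+ against 20.9, 19.4 and 74.9 CPM in GFP- libraries (log2FC -3.58 ± 0.71 SE, adjusted p = 0.00653). For both genes the third library was the highest in each population, and every GFP- library stood above every GFP+ library. *Cxcl1* had 184, 184 and 458 CPM in GFP+ against 979, 1095 and 1374 CPM in GFP- libraries (log2FC -2.06 ± 0.39 SE, adjusted p = 0.00503). *Cxcl2* had 87.6, 125 and 115 CPM in GFP+ against 188, 761 and 350 CPM in GFP- libraries (log2FC -1.99 ± 0.48 SE, adjusted p = 0.0146), and its adjusted p was 0.062 without GFP+ library 1. *Cxcl1* was the most abundant member per kilobase of exon in both populations, at 289 CPM per kb in GFP+ and 1206 CPM per kb in GFP- cells.

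Among CC chemokines, *Ccl5*, which attracts T cells and monocytes, was the most reduced. It had 15.4, 11.95 and 11.6 CPM in GFP+ against 205, 155 and 121 CPM in GFP- libraries (log2FC -3.62 ± 0.23 SE, adjusted p = 5.94e-05). *Ccl7* had 31.6, 33.8 and 27.9 CPM in GFP+ against 137, 173 and 157 CPM in GFP- libraries (log2FC -2.32 ± 0.12 SE, adjusted p = 3.56e-05). *Ccl2* had 43.3, 44.5 and 74.9 CPM in GFP+ against 209, 263 and 339 CPM in GFP- libraries (log2FC -2.32 ± 0.27 SE, adjusted p = 0.000706). The neighbours *Ccl2* and *Ccl7* thus differed between the populations by nearly the same log2FC. *Ccl9*, with 14.3, 17.1 and 13.7 CPM in GFP+ against 32.5, 93.1 and 29.6 CPM in GFP- libraries, fell by 1.78 on the log2 scale (adjusted p = 0.0181), and its adjusted p was 0.063 to 0.0667 without GFP+ library 1 or 3. *Cx3cl1*, a membrane-bound chemokine that holds monocytes and osteoclast precursors through CX3CR1, had 13.5, 10.04 and 21.0 CPM in GFP+ against 79.8, 60.1 and 77.0 CPM in GFP- libraries (log2FC -2.28 ± 0.27 SE, adjusted p = 0.000687).

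The interleukin-6 family was lower in part. *Il6*, which drives osteoclast formation through stromal cells, had 9.18, 5.23 and 24.2 CPM in GFP+ against 97.9, 62.0 and 231 CPM in GFP- libraries (log2FC -3.34 ± 0.70 SE, adjusted p = 0.0081). *Il11* had 2.46, 0.913 and 5.18 CPM in GFP+ against 9.32, 7.62 and 21.1 CPM in GFP- libraries (log2FC -2.15 ± 0.63 SE, adjusted p = 0.0297). *Lif* had 53.5, 33.9 and 166 CPM in GFP+ against 173, 164 and 364 CPM in GFP- libraries (log2FC -1.47 ± 0.62 SE, adjusted p = 0.0964). For all 3 genes library 3 was the highest in both populations, and for *Lif* that put GFP+ library 3 within the GFP- range. Chip libraries of the same number deviated together, but the labels do not say that they are pairs. With the number as a block *Lif* was called lower (log2FC -1.69, adjusted p = 0.00221). Without GFP+ library 3 it was called lower too (log2FC -2.42, adjusted p = 0.0101). *Il11* lost its call without GFP+ library 1 or 2 or GFP- library 3, at adjusted p-values of 0.0632 to 0.103.

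Of the other cytokines, the lymphocyte growth factors *Il7* and *Il15* and the genes *Il16*, *Il18*, *Cxcl10* and *Cxcl14* were lower. *Il7* had 0.189, 0.166 and 0.957 CPM in GFP+ against 3.05, 2.79 and 4.03 CPM in GFP- libraries (log2FC -2.86 ± 0.57 SE, adjusted p = 0.0064). *Il15* had 0.757, 0.415 and 0.319 CPM in GFP+ against 2.00, 4.38 and 1.58 CPM in GFP- libraries (log2FC -2.42 ± 0.54 SE, adjusted p = 0.0103). *Cxcl14* had 6.82, 4.73 and 18.6 CPM in GFP+ against 36.1, 29.6 and 77.2 CPM in GFP- libraries (log2FC -2.24 ± 0.58 SE, adjusted p = 0.0187). As for *Cxcl5* and *Il6*, its library 3 was the highest in each population. *Cxcl10* (log2FC -1.66, adjusted p = 0.0244), *Il16* (log2FC -1.62, adjusted p = 0.000989) and *Il18* (log2FC -1.42, adjusted p = 0.00114) differed by less. *Cxcl10* lost its call without GFP+ library 1 or 2 or GFP- library 3 (0.063 to 0.0858) and *Cxcl14* without GFP+ library 1 or 2 (0.0535 to 0.0746).

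For a set of genes known from macrophages, 1 library decided the values. *Il1b*, the major inflammatory interleukin-1, had 16.9, 32.6 and 16.7 CPM in GFP+ against 11.1, 167 and 9.14 CPM in GFP- libraries. *Ccl3* had 14.2, 30.7 and 20.3 CPM in GFP+ against 12.1, 159 and 9.28 CPM in GFP- libraries, and *Ccl4* had 11.1, 21.2 and 9.41 CPM in GFP+ against 8.28, 109 and 6.12 CPM in GFP- libraries. *Il10*, an anti-inflammatory cytokine, had 4.35, 8.63 and 2.47 CPM in GFP+ against 2.96, 46.9 and 2.04 CPM in GFP- libraries. In each case GFP- library 2 stood far above the other GFP- libraries, which lay below all GFP+ libraries for *Il1b*, *Ccl3* and *Ccl4* and overlapped them for *Il10*. GFP- library 2 was the highest of its population for 15 of the 29 members tested and more than 2-fold above the next for 11. The 8 monocyte and macrophage markers showed the same: they summed to 671, 847 and 498 CPM in GFP+ against 456, 4047 and 350 CPM in GFP- libraries, with none at 0 in any library and none of the 8 called. Without GFP- library 2, 4 members were called higher in GFP+ cells, *Ccl12* (log2FC 1.12, adjusted p = 0.0432), *Ccl3* (log2FC 1.04, adjusted p = 0.0287), *Ccl6* (log2FC 0.63, adjusted p = 0.0216) and *Il1b* (log2FC 1.13, adjusted p = 0.0224), so the absence of higher calls rests on that library. The share of all genes called in that fit is not given here. The part of macrophages in these results was not tested.

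**Figure D2:**
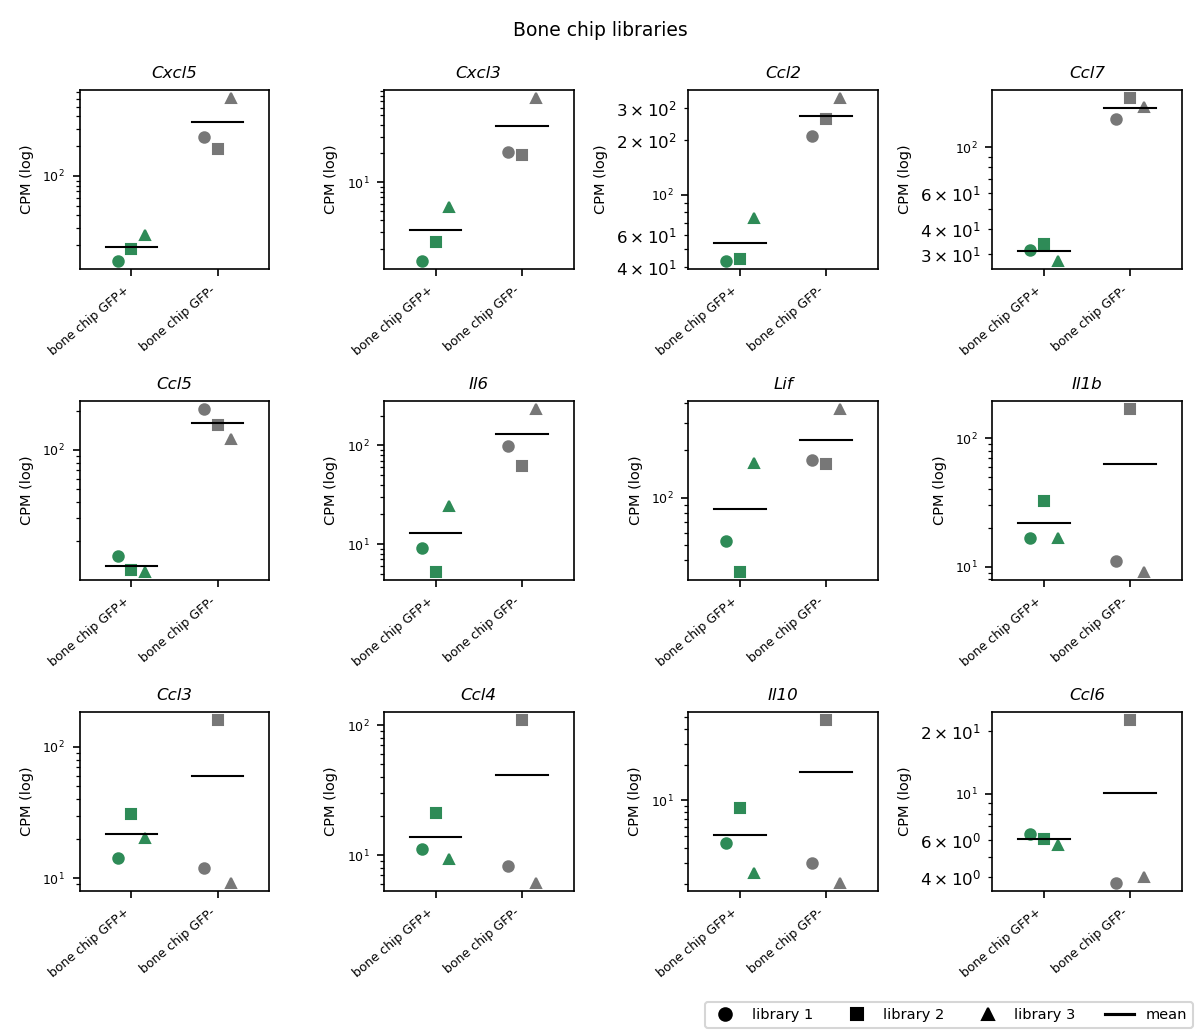
CPM on a log axis of 12 members in bone chip GFP+ (left) and GFP- (right) libraries. Points are libraries, their shape is the library number, and lines are means of 3. *Cxcl5*, *Cxcl3*, *Ccl2*, *Ccl7*, *Ccl5* and *Il6* are lower in every GFP+ library, whereas *Il1b*, *Ccl3*, *Ccl4*, *Il10* and *Ccl6* are high in GFP- library 2 alone, as *Il1b* at 167 CPM beside 11.1 and 9.14 CPM.

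The chip libraries shared a pattern across populations. For 11 members library 3 was the highest in both GFP+ and GFP- cells, among them *Cxcl1*, *Cxcl3*, *Cxcl5*, *Il6*, *Il11*, *Lif* and *Ccl2*, and for 9 members library 2 was, among them *Il1b*, *Ccl3*, *Ccl4*, *Il10* and *Cxcl2*. What libraries with the same number shared is not given in the sources used here.

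**Figure D3:**
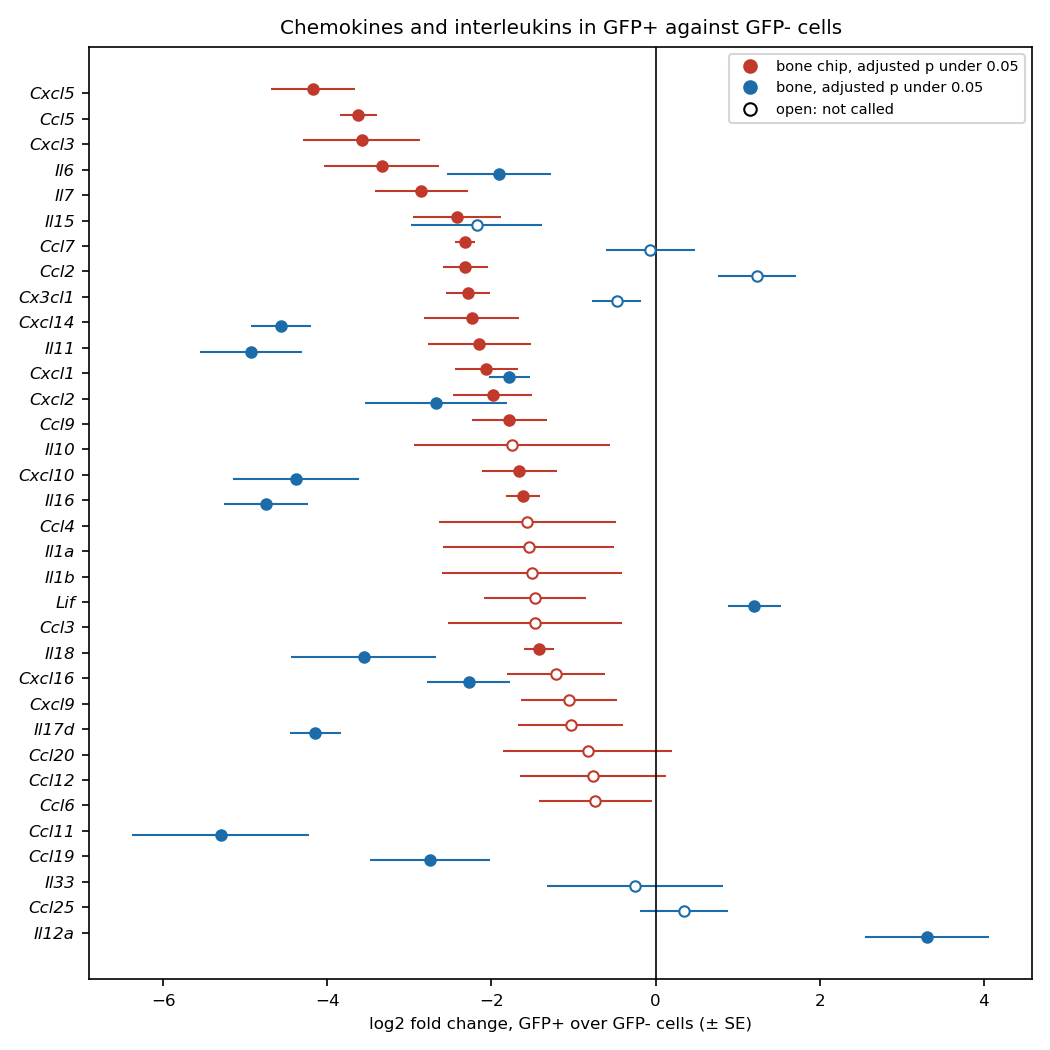
Log2FC ± SE, GFP+ over GFP- cells, of the members tested in bone chips (red) and fresh bone (blue), ordered by the chip value. Filled points passed an adjusted p of 0.05 and open points did not. All red points lie left of 0, and *Lif* and *Ccl2* lie right of 0 in fresh bone, at 1.21 and 1.23, and left of it in chips, at -1.47 and -2.32.

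Of the 15 members tested in both bone sources, 10 were lower in fresh bone and 12 in bone chips, and 8 were lower in both, 8 of the 10 and 8 of the 12. With 10 and 12 of 15 called, at least 7 had to be shared, so the overlap says little beyond each source's own count. Of the 11789 genes tested in both sources, 1096 were lower in both (9.3%). The 8 were *Cxcl1*, *Cxcl2*, *Cxcl10*, *Cxcl14*, *Il6*, *Il11*, *Il16* and *Il18*. The difference between sources was tested as an interaction over the 12 bone libraries: the effect of GFP in chips minus that in fresh bone. It was above 0 for 5 and below 0 for 4 of the 31 members tested, against 15.6% above and 14.7% below of all 13574 genes, a share near the background in both directions. Without bone GFP- library 3, chip GFP- library 1 or chip GFP+ library 3 the 5 became 2, and without bone GFP+ library 2 they became 3. Scaled by total counts, the median of all genes was 0.49 and the split over all genes was 3882 above 0 and 1021 below in place of 2117 and 1991, whereas 6 members were above 0 and 4 below.

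*Ccl2*, *Lif*, *Ccl7* and *Cx3cl1* had a more negative effect in culture. For *Ccl2* the difference of effects was -3.55 ± 0.56 SE on the log2 scale (adjusted p = 0.000456), for *Lif* -2.69 ± 0.76 SE (adjusted p = 0.0176), for *Ccl7* -2.25 ± 0.61 SE (adjusted p = 0.0146) and for *Cx3cl1* -1.81 ± 0.42 SE (adjusted p = 0.00655). The means on a scale common to the 12 libraries show where these differences lay. *Ccl2* averaged 46.8 CPM in chip GFP+ against 232 CPM in chip GFP- cells, and 8.72 CPM in bone GFP+ against 3.68 CPM in bone GFP- cells. *Lif* averaged 72.8 CPM in chip GFP+ against 202 CPM in chip GFP- cells, and 12.5 CPM in bone GFP+ against 5.37 CPM in bone GFP- cells. Both genes were more abundant in both cultured populations, and more so in GFP- cells.

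For 5 genes the effect was less negative in culture. The difference of effects was 3.13 ± 0.69 SE for *Il17d* (adjusted p = 0.00448), 3.13 ± 0.62 SE for *Il16* (adjusted p = 0.00242), 2.76 ± 0.96 SE for *Il11* (adjusted p = 0.0467), 2.72 ± 0.88 SE for *Cxcl10* (adjusted p = 0.0335) and 2.31 ± 0.72 SE for *Cxcl14* (adjusted p = 0.0279). For *Il17d*, *Il16*, *Il11* and *Cxcl14* the GFP- level was lower in culture: *Il17d* averaged 1.62 CPM in chip GFP- against 71.4 CPM in bone GFP- cells, and *Il16* 7.09 CPM in chip GFP- against 57.0 CPM in bone GFP- cells. The calls for *Il11*, *Cxcl10* and *Cxcl14* were lost in 8, 6 and 5 of the 12 fits that left out a library, at adjusted p-values of up to 0.188, 0.0964 and 0.111. Without chip GFP- library 2 the differences for *Il1b*, *Ccl3*, *Ccl4* and *Cxcl16* were called, at adjusted p-values of 0.00288, 0.0205, 0.0324 and 0.0164, and without bone GFP- library 1 that for *Il12a* was (adjusted p = 0.0143).

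Cultured and fresh cells of the same population were compared in the same fit of 12 libraries. Most of the members tested were higher in culture in each population, but source, culture, handling and the separate count tables cannot be told apart. Y-linked genes differed as well, at 625 to 1167 counts in bone GFP- libraries. In chip libraries 1 such gene was listed, with at most 1 count a library. The part of sex in these differences was not tested. In GFP- cells 20 of 31 members were higher and 8 lower in chips, against 32.3% higher and 31.1% lower over all genes, with a median log2FC of 3.75 beside 0.04. In GFP+ cells 19 were higher and 4 lower, against 32.6% and 28.5%, with a median of 2.66 beside 0.08. A gene could pass the filter here through the chip libraries alone, as *Ccl3* with 0 counts in bone GFP+ and 5 in bone GFP- libraries. The shares called and the medians are thus no measure of the 40 members listed in both sources. Scaled by total counts, the median of all genes was 0.76 in GFP+ cells, where the split over all genes was 7015 higher and 1749 lower in place of 4419 and 3863.

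*Cxcl1* averaged 238 CPM in chip GFP+ against 12.8 CPM in bone GFP+ cells (log2FC 4.21 ± 0.38 SE, adjusted p = 1.29e-06), and 988 CPM in chip GFP- against 43.8 CPM in bone GFP- cells (log2FC 4.50 ± 0.38 SE, adjusted p = 6.38e-07). *Cxcl2* averaged 94.5 CPM in chip GFP+ against 0.463 CPM in bone GFP+ cells (log2FC 7.51 ± 0.72 SE, adjusted p = 2.34e-06), and 368 CPM in chip GFP- against 3.08 CPM in bone GFP- cells (log2FC 6.91 ± 0.67 SE, adjusted p = 1.93e-06). The level of *Cxcl1* and *Cxcl2* in cultured osteoblasts thus exceeded that in fresh GFP- cells. *Il6* averaged 11.1 CPM in chip GFP+ against 1.91 CPM in bone GFP+ cells (log2FC 2.66 ± 0.73 SE, adjusted p = 0.0068), and 113 CPM in chip GFP- against 6.99 CPM in bone GFP- cells (log2FC 4.02 ± 0.70 SE, adjusted p = 0.00027). *Cxcl5* averaged 16.6 CPM in chip GFP+ against 0.0312 CPM in bone GFP+ cells, and 301 CPM in chip GFP- against 0.309 CPM in bone GFP- cells.

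Several chemokines were nearly absent from the fresh libraries. *Ccl5* had 453 counts in chip GFP+ against 1 in bone GFP+ libraries, a ratio of 636 (95% exact interval 114 to 25173), and 7391 counts in chip GFP- against 10 in bone GFP- libraries. *Ccl3* had 774 counts in chip GFP+ against 0 in bone GFP+ libraries, which is at least 362-fold higher with a floor of 3 counts over the group. On the same floor *Il10* was at least 84.7-fold and *Cxcl3* at least 53.8-fold higher in chip GFP+ cells. These intervals and floors cover counting error only.

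A smaller set was lower in culture. *Il17d* averaged 0.781 CPM in chip GFP+ against 4.06 CPM in bone GFP+ cells (log2FC -2.32 ± 0.49 SE, adjusted p = 0.00135) and fell by 5.46 on the log2 scale in GFP- cells (adjusted p = 5.1e-07). *Il12a*, of the members the one with the largest positive change in fresh osteoblasts, averaged 0.216 CPM in chip GFP+ against 8.31 CPM in bone GFP+ cells (log2FC -5.19 ± 0.80 SE, adjusted p = 0.000118). *Il33*, an alarmin, was lower in chip GFP+ cells as well (log2FC -4.04 ± 1.31 SE, adjusted p = 0.0172), at 4 against 104 counts, though bone GFP+ library 3 lay within the chip range and the call was lost in 2 of the 12 fits that left out a library (adjusted p of 0.0502 to 0.0633). In GFP- cells *Il16* (log2FC -3.00 ± 0.42 SE, adjusted p = 4.22e-05), *Il11* (log2FC -1.99 ± 0.62 SE, adjusted p = 0.0135) and *Cxcl14* (log2FC -1.88 ± 0.49 SE, adjusted p = 0.00489) were lower in chips. *Ccl11* of the *Ccl2* cluster was lower in chip GFP- cells too (log2FC -4.11 ± 1.04 SE, adjusted p = 0.00402) and not called in GFP+ cells (adjusted p = 0.882). In GFP+ cells *Il16*, *Il11* and *Cxcl14* were not called. Without chip GFP- library 1 the 8 members lower in GFP- cells became 5, and *Il11* there had an adjusted p of up to 0.0508 with a library left out.

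**Figure D4:**
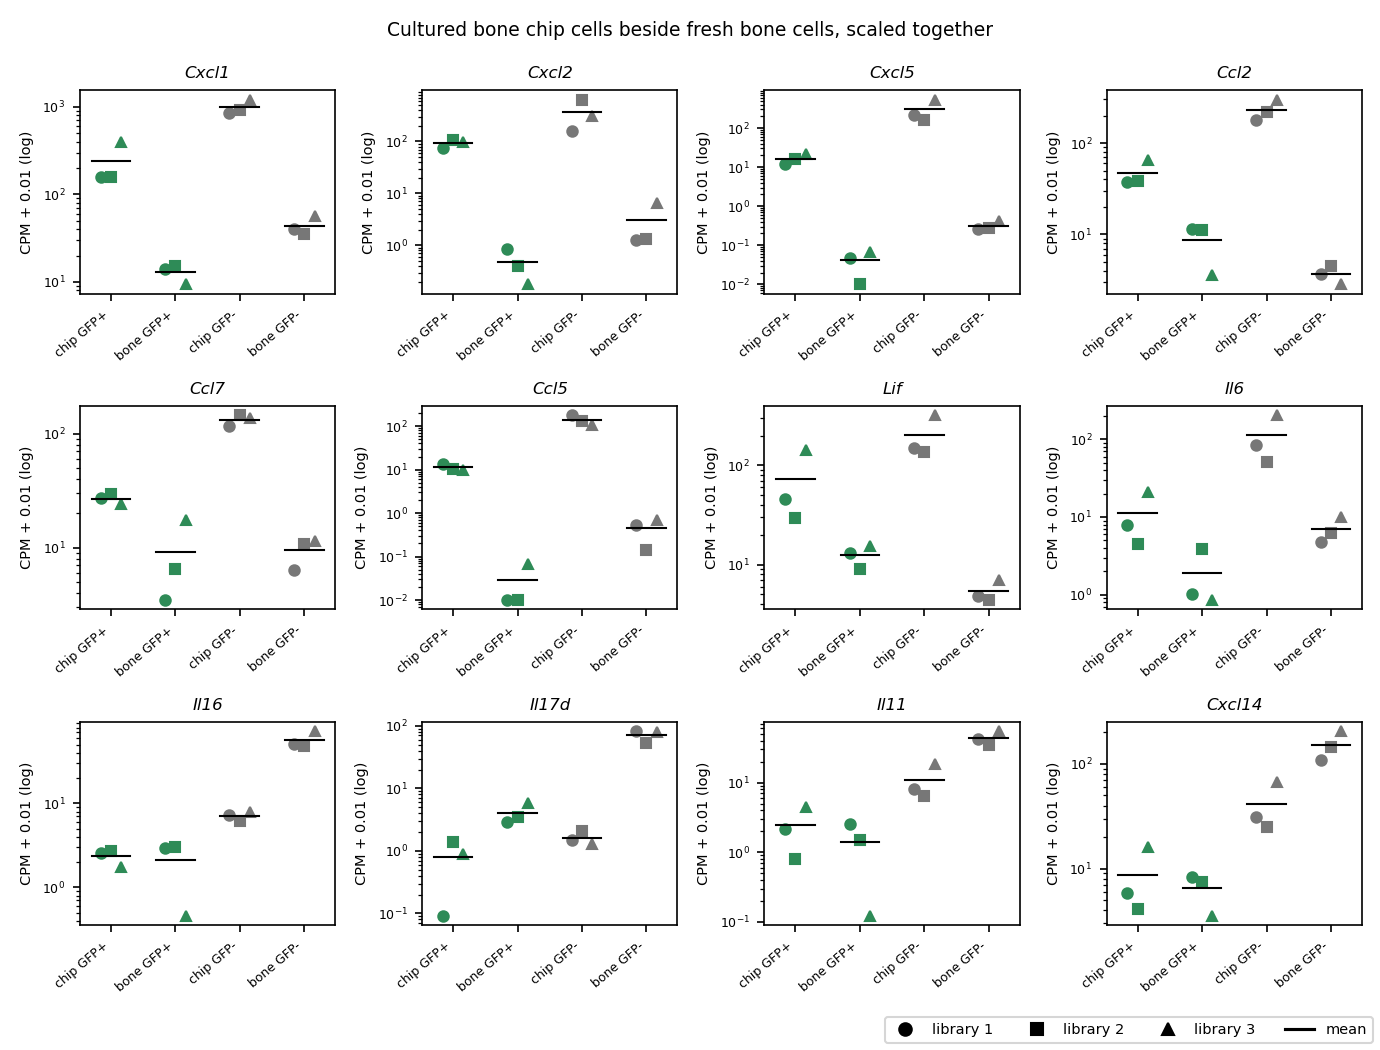
CPM on a log axis, with 0.01 CPM added, of 12 members in chip and bone libraries scaled together. Within each population the cultured libraries stand left of the fresh ones, points are libraries and lines are means of 3. *Cxcl1*, *Cxcl2*, *Cxcl5*, *Ccl2*, *Ccl7*, *Ccl5*, *Lif* and *Il6* were called higher in culture in both populations, and *Il16*, *Il11* and *Cxcl14* were called lower in culture in GFP- cells, as *Il16* at a mean of 7.09 CPM against 57.0 CPM.

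GFP+ cells made from ESC held many chemokine messages that were absent or rare in ESC. Of the 56 listed members, 26 passed the filter, and with edgeR's test 22 were higher and 0 lower, against 43.0% higher and 34.7% lower of all 15415 genes. At an unadjusted p under 0.05, 23 were higher and 0 lower, and DESeq2 called 23 higher and 0 lower. The median log2FC was 6.09, or 5.60 with the 7 genes at 0 counts in ESC set to their lower bound, beside 0.22 over all genes. Fold changes here depend on very low ESC counts: 14 of the 26 had 3 or fewer over the 3 ESC libraries. A gene passes the filter on low counts here mostly through the ESC-OB libraries, so the share called is no measure of the 56.

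*Cxcl1*, *Ccl7* and *Ccl2* led. *Cxcl1* had 97.3, 472 and 209 CPM in ESC-OB GFP+ against 0, 0.0555 and 0 CPM in ESC libraries, or 18351 counts against 1. *Ccl7* had 51.9, 275 and 152 CPM in ESC-OB GFP+ libraries and 0 counts in ESC, at least 1404-fold higher (adjusted p = 9.55e-06 by edgeR). *Ccl2* had 53.4, 278 and 134 CPM in ESC-OB GFP+ libraries and 0 counts in ESC, at least 1363-fold higher (adjusted p = 9.86e-06 by edgeR). The order of the 3 ESC-OB libraries was the same for these genes, with library 2 the highest and library 1 the lowest. *Cxcl2* had 3.32, 25.5 and 12.5 CPM in ESC-OB GFP+ libraries and 0 counts in ESC, at least a 120.04-fold excess, and *Il6* had 3.14, 37.3 and 14.7 CPM in ESC-OB GFP+ libraries against 1 count in ESC. Both followed the same order.

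Others were even across the ESC-OB libraries. *Cxcl16* had 110.2, 103 and 110.5 CPM in ESC-OB GFP+ against 0.737, 1.33 and 1.26 CPM in ESC libraries (log2FC 6.51 ± 0.23 SE, adjusted p = 9.63e-09). *Cx3cl1* had 105, 145 and 122 CPM in ESC-OB GFP+ against 3.13, 3.16 and 2.09 CPM in ESC libraries (log2FC 5.42 ± 0.23 SE, adjusted p = 1.72e-08). *Cxcl16* and *Cx3cl1* encode the transmembrane chemokines, and the highest ESC-OB library exceeded the lowest 1.07-fold for *Cxcl16* against 11.9-fold for *Il6*, 7.69-fold for *Cxcl2* and 4.85-fold for *Cxcl1*. *Cxcl17*, expressed in mucosal epithelia, had 66.9, 47.7 and 45.4 CPM in ESC-OB GFP+ against 0.369, 0.333 and 0.419 CPM in ESC libraries (log2FC 7.20 ± 0.33 SE, adjusted p = 2.3e-08). *Il33* had 31.2, 53.7 and 31.7 CPM in ESC-OB GFP+ against 0.369, 0.0555 and 0.209 CPM in ESC libraries (log2FC 7.98 ± 0.50 SE, adjusted p = 1.79e-07).

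The lymphoid chemokines were present too. *Cxcl13*, which guides B cells, exceeded its ESC floor at least 87.2-fold in ESC-OB GFP+ cells, *Ccl20* at least 63.9-fold and *Ccl17* at least 11.6-fold, all with 0 counts in ESC. *Ccl6* had 28.1, 31.4 and 7.40 CPM in ESC-OB GFP+ libraries and 0 counts in ESC, a rise of at least 209-fold. *Cxcl10* had 4.25, 21.1 and 9.42 CPM in ESC-OB GFP+ against 0.184, 0.666 and 0.419 CPM in ESC libraries (log2FC 4.53 ± 0.70 SE, adjusted p = 0.000134). *Lif* was the member with the highest level in ESC, with 28.1, 28.3 and 41.1 CPM in ESC-OB GFP+ against 16.4, 13.4 and 11.7 CPM in ESC libraries (log2FC 1.23 ± 0.23 SE, adjusted p = 0.000538). *Il23a*, *Ccl25*, *Il17d* and *Cxcl14* were not called, and for *Cxcl14* the ESC-OB libraries at 5.25, 9.54 and 10.4 CPM overlapped the ESC libraries at 6.82, 2.66 and 0.838 CPM (adjusted p = 0.0525). DESeq2 called *Cxcl14* higher (adjusted p = 0.0413). Of the members that missed the filter, *Ccl11* had 167 counts in ESC-OB GFP+ against 0 in ESC libraries, *Il1a* 109 against 5 and *Il15* 94 against 2.

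ESC-OB library 2 was the highest for 18 of the 22 genes called. Markers of other cell types differed between ESC-OB GFP+ cells and ESC as well. The 8 monocyte and macrophage markers summed to 187 to 282 CPM in ESC-OB GFP+ against 15.3 to 20.3 CPM in ESC libraries, with 5 called higher, and library 1 held the largest sum. The 6 epithelial markers summed to 3059 to 3702 CPM in ESC-OB GFP+ against 431 to 567 CPM in ESC libraries, with *Krt5*, *Krt14*, *Krt8*, *Krt18* and *Epcam* higher and *Cdh1* lower. Neutrophil markers summed to 660.4 to 839 CPM in ESC-OB GFP+ libraries, nearly all of it *Ltf*, while the defining marker *S100a8* was at 0 in 2 of those 3 libraries. Their part in the chemokine values was not tested.

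**Figure D5:**
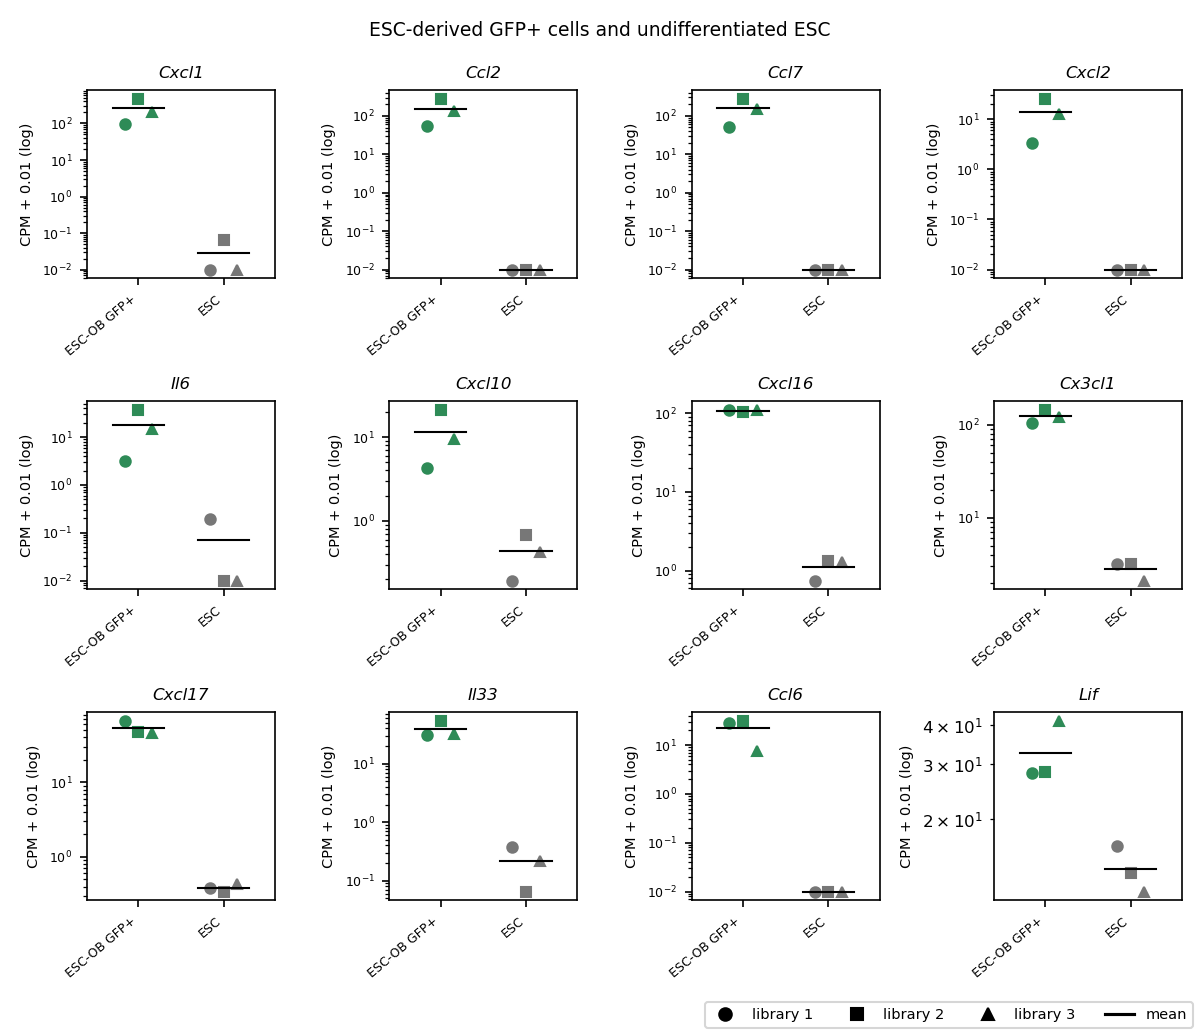
CPM on a log axis, with 0.01 CPM added, of 12 members in ESC-OB GFP+ (left) and ESC (right) libraries. Points are libraries, their shape is the library number, lines are means of 3, and points on the line at 0.01 had no counts. *Cxcl1*, *Ccl2*, *Ccl7*, *Cxcl2*, *Il6* and *Cxcl10* are spread with library 2 on top, as *Cxcl1* at 97.3, 472 and 209 CPM, whereas *Cxcl16* and *Cx3cl1* are even.

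Of the 8 genes lower in osteoblasts of both bone sources, 7 were higher in ESC-OB GFP+ cells than in ESC, the exception being *Cxcl14*. Among all 26 members tested against ESC, 22 were higher, against 43.0% of all genes. The 7 of 8 thus say little beyond that count, and members passed the filter there mostly through the ESC-OB libraries. The counterparts differ, GFP- bone cells and ESC, and no test joined these comparisons. The chromosome 5 cluster of *Cxcl1* was lower in osteoblasts for 2 of 2 genes tested in fresh bone and 4 of 4 in bone chips. Over all genes, 22.1% and 23.1% were lower. In fresh bone the call on *Cxcl2* was lost in 3 of the 6 fits that left out a library. In ESC-OB GFP+ cells 3 of 3 genes of the cluster were higher, against 43.0% of all genes. Their ESC counts were at or near 0, so this direction was largely set by the filter. Per kilobase of exon, *Cxcl1* had the highest mean of the members in each of the 3 GFP+ populations, at 272 CPM per kb in ESC-OB, 289 in bone chips and 11.5 in fresh bone. In fresh bone *Ccl7* followed closely at 9.78 CPM per kb and stood above *Cxcl1* in GFP+ library 3. In bone GFP- cells *Cxcl14*, at 72.1 CPM per kb, and *Il17d*, at 49.9, stood before *Cxcl1* at 39.7.

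More receptors for these signals were called lower than higher in the bone sources. The receptor lists held 24 tested genes in fresh bone, of which 4 were higher and 13 lower in GFP+ cells, 37 in bone chips with 4 higher and 15 lower, and 33 in ESC-OB with 22 higher and 3 lower. Over all genes, 19.5% were higher and 22.1% lower in fresh bone, 20.4% and 23.1% in bone chips, and 43.0% and 34.7% in ESC-OB. The share of receptors higher in the bone sources was thus near or below that of all genes, and the share lower was above it. In ESC-OB the share higher was above that of all genes and the share lower below it. *Lifr*, the LIF receptor, was higher in osteoblasts of both sources. It had 337, 313 and 339.8 CPM in GFP+ against 29.9, 49.2 and 25.4 CPM in GFP- libraries of fresh bone (log2FC 3.24 ± 0.25 SE, adjusted p = 9.14e-06), and 872, 547 and 982 CPM in GFP+ against 138, 112 and 146 CPM in GFP- libraries of bone chips (log2FC 2.60 ± 0.24 SE, adjusted p = 0.000233). The receptors *Osmr* (log2FC -2.78 in fresh bone and -1.08 in chips) and *Il11ra1* (log2FC -2.37 and -0.85), which also signal through gp130, were lower in both. *Il6st* was lower in chips (log2FC -2.02 ± 0.21 SE, adjusted p = 0.000425) and not called in fresh bone (log2FC -0.45 ± 0.17 SE, adjusted p = 0.0574).

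Receptors of the interleukin-1 family were lower in part. *Il1rl1*, the receptor for interleukin-33, had 19.0, 17.0 and 15.0 CPM in GFP+ against 401, 224 and 327 CPM in GFP- libraries of bone chips (log2FC -4.22 ± 0.24 SE, adjusted p = 4.54e-05) and was lower in fresh bone too (log2FC -5.78 ± 0.57 SE, adjusted p = 4.74e-05). *Il1r1* was lower in both (log2FC -1.92 in fresh bone and -3.01 in chips). *Il1rn*, which encodes the interleukin-1 receptor antagonist, had 14.0, 21.3 and 10.2 CPM in GFP+ against 92.9, 142 and 112 CPM in GFP- libraries of bone chips (log2FC -2.93 ± 0.29 SE, adjusted p = 0.000338). Higher in fresh osteoblasts were *Il2rg*, the common gamma chain, with 47.8, 50.6 and 48.4 CPM in GFP+ against 3.85, 1.14 and 0.117 CPM in GFP- libraries (log2FC 4.82 ± 0.58 SE, adjusted p = 0.00016), and the interleukin-36 receptor gene *Il1rl2* (log2FC 3.39 ± 0.70 SE, adjusted p = 0.00394).

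Classical chemokine receptors were scarce. None of the 12 listed in fresh bone passed the filter, and 6 did in bone chips. The scavenging receptors differed by source. *Ackr3*, which takes up CXCL12, had 543, 584 and 582 CPM in GFP+ against 99.3, 85.3 and 118 CPM in GFP- libraries of bone chips (log2FC 2.50 ± 0.14 SE, adjusted p = 3.73e-05), and 42.8, 66.7 and 62.1 CPM in GFP+ against 119.7, 136 and 105 CPM in GFP- libraries of fresh bone (log2FC -1.07 ± 0.20 SE, adjusted p = 0.00204). The call thus had opposite directions in the 2 bone sources, and the difference of effects was 3.57 ± 0.26 SE (adjusted p = 1.2e-06 by edgeR). *Ackr4*, which takes up CCL19 and CCL21, was higher in fresh osteoblasts (log2FC 3.66 ± 0.37 SE, adjusted p = 5.29e-05) and lower in chip osteoblasts (log2FC -1.04 ± 0.34 SE, adjusted p = 0.0449), with a difference of effects of -4.70 ± 0.51 SE (adjusted p = 2.57e-05 by edgeR).

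Among genes of the NF-kB pathway and its feedback, more were called lower than higher in osteoblasts. In bone chips 11 of 20 were lower and 2 higher, *Ikbkg* and *Traf6*, against 23.1% lower and 20.4% higher over all genes, and *Traf6* was at -0.14 when scaled by total counts. The feedback genes *Nfkbie* (log2FC -1.90, adjusted p = 0.00128), *Tnfaip3* (log2FC -1.87, adjusted p = 0.00196), *Nfkbiz* (log2FC -1.11, adjusted p = 0.0122) and *Nfkbia* (log2FC -1.08, adjusted p = 0.0101) were among the lower ones. *Tnfaip3* had 120.4, 113 and 229 CPM in GFP+ against 505, 565 and 620.0 CPM in GFP- libraries. In fresh bone 9 of 20 were lower, against 22.1% of all genes, and 2 higher, namely *Nfkbia* (log2FC 0.81) and *Traf6* (log2FC 0.94), which were at -0.22 and -0.11 when scaled by total counts. In ESC-OB GFP+ cells 14 of 20 were higher than in ESC and 1 lower, against 43.0% and 34.7% of all genes. *Tnfaip3* had 114, 437 and 317 CPM in ESC-OB GFP+ against 1.47, 1.22 and 1.05 CPM in ESC libraries (log2FC 7.85 ± 0.56 SE, adjusted p = 3.97e-07), with the libraries in the same order as for *Cxcl1*.

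JAK and STAT genes were called in both directions. In fresh bone 5 of 16 were higher and 3 lower, against 19.5% higher and 22.1% lower over all genes, with *Stat6* among the higher ones at -0.53 when scaled by total counts, and in bone chips 3 of 15 were higher, *Jak1*, *Jak2* and *Jak3*, and 5 lower, against 20.4% and 23.1%. *Socs3*, a feedback inhibitor of gp130 signalling, had 1055, 1091 and 931 CPM in GFP+ against 501, 329 and 518 CPM in GFP- libraries of fresh bone (log2FC 1.19 ± 0.20 SE, adjusted p = 0.00122). *Jak3*, which works with the common gamma chain, had 44.2, 50.1 and 45.1 CPM in GFP+ against 10.6, 16.8 and 10.99 CPM in GFP- libraries of bone chips (log2FC 1.86 ± 0.19 SE, adjusted p = 0.000338). *Jak1* was higher in both bone sources (log2FC 1.03 and 0.75), but at -0.03 in fresh bone when scaled by total counts. In ESC-OB GFP+ cells 13 of 16 were higher than in ESC and 1, *Stat4*, lower, against 43.0% and 34.7%.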

How the data were processed

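RNA sequencing was performed on 18 libraries of 6 populations. The deposited values are raw read counts per gene, one table for each of the 3 sources. Per the submitters' processing notes the authors used STAR 2.4.2a, DESeq2, R 3.2.2 and the mm9 genome, but the counting tool and its use of strand are not given in the sources used here, so that reads of overlapping or antisense genes cannot be told apart. From the ESC-OB counts, 4 rows with a repeated name were left out.

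Genes were kept by filterByExpr of edgeR 4.0.16 (minimum count 10, R 4.3.3) and tested with its quasi-likelihood test after TMM scaling, with Benjamini-Hochberg adjustment over all genes tested and a threshold of 0.05. CPM are counts per 1e+06 of the TMM-scaled library total, scaled within each source, or over 12 libraries where fresh bone and bone chips are compared. Library numbers enter no main fit. Fold bounds against 0 counts use a floor of 3 counts over the group and 95% exact intervals. Alternatives were DESeq2 1.42.0, its size factors within edgeR (RLE), no filter, the library number as a block, thinning to 4920977 counts a library, a joint fit of 18 libraries and leaving out each library. Scaling by total counts was added after the data were seen. In bone chips, libraries of the same number deviated together (residual correlations of 0.16, 0.33 and 0.40). A pairing would rest on the shared number in the labels and this check alone. The main fits and their p-values are unpaired, and the number enters only the alternative fit with a block. The script was tested on simulated data. Promoters and motifs come from RefSeq (GRCm38.p6), and gene positions and exon lengths from an mm9 annotation. Plots were made in matplotlib 3.10.9 under Python 3.11.15 (pandas 2.3.3).

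The members and the lists of receptors, signalling genes and markers were chosen with earlier results of these data known. Genes were named where they were called, their libraries did not overlap and their mean reached 1 CPM in the higher group, up to 10 in each direction by size of change, with the 5 most abundant members of each population and up to 4 called genes of each receptor or signalling list. The macrophage genes of bone chips (*Il1b*, *Ccl3*, *Ccl4*, *Il10*), uncalled genes, *Ccl11*, the differences of effects of *Ackr3* and *Ackr4*, *Il6st* in fresh bone, *Il1rn* and the genes whose direction moved with the scaling were named after their values were seen.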

Additional observations from a re-analysis of the deposited data

Results flagged for a closer look

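For 9 genes the effect of GFP differed between bone chips and fresh bone in the interaction test of edgeR, with adjustment over all genes. The effect in chips minus that in fresh bone was -3.55 on the log2 scale for *Ccl2*, -2.69 for *Lif*, -2.25 for *Ccl7* and -1.81 for *Cx3cl1*. It was 2.31 for *Cxcl14*, 2.72 for *Cxcl10*, 2.76 for *Il11*, 3.13 for *Il16* and 3.13 for *Il17d*. Among the atypical chemokine receptors it was 3.57 for *Ackr3* and -4.70 for *Ackr4*. The 2 sources differ in culture, handling, count table and Y-linked counts, which cannot be told apart. With only 3 libraries a population, no library was tested as standing apart from its group.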

How the results depend on the processing

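Scaled by total counts, 1 member was higher in fresh bone, and 5 calls on signalling genes turned: in fresh bone *Jak1* was at -0.034, *Nfkbia* at -0.22, *Stat6* at -0.53 and *Traf6* at -0.11 (log2), and in bone chips *Traf6* was at -0.14. This scaling shifts the median of all genes, to -1.06 in fresh bone. Without a filter 35 members were higher in ESC-OB GFP+ cells, since more genes were tested, beside 7090 higher and 5534 lower over all genes. Thinned to equal totals, 5 members were lower in chip than in bone GFP- cells and 2 in chip than in bone GFP+ cells; the cause was not tested. With 1 library left out, the counts ranged over 1 to 3 higher and 8 to 11 lower in fresh bone, 0 to 4 higher and 12 to 18 lower in bone chips, and 23 to 32 higher and 0 lower in ESC-OB GFP+ cells. They ranged over 2 to 7 above 0 and 4 to 5 below for the difference of effects, 19 to 21 higher and 5 to 8 lower in chip GFP- cells, and 19 to 20 higher and 3 to 4 lower in chip GFP+ cells against fresh ones.

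With the replicate number as a block, 2 members were higher and 11 lower in fresh bone, 0 and 18 in bone chips, and 23 and 0 in ESC-OB GFP+ cells. Over all genes these fits called 2160 higher and 2495 lower in fresh bone, 2709 and 3077 in bone chips, and 6515 and 5270 in ESC-OB. Same-numbered libraries did not deviate together in fresh bone (residual correlations -0.01, -0.02 and 0.03) or in ESC-OB (-0.01, -0.00071 and -0.02). There the block lost *Cxcl2* (adjusted p = 0.123, fresh bone) and added *Cxcl14* (adjusted p = 0.036, ESC-OB). In bone chips, where same-numbered libraries deviated together, *Lif* was the 1 call the block changed from the unpaired main fit. The joint fit of 18 libraries lost *Cxcl2* (adjusted p = 0.06) and *Il6* (adjusted p = 0.0819) in fresh bone and gained *Il15* there (adjusted p = 0.0336), and *Cxcl16* and *Lif* in bone chips (adjusted p = 0.0436 and 0.0162). DESeq2 gained *Ccl2* in fresh bone (adjusted p = 0.0436) and lost the difference of effects of *Il11* (adjusted p = 0.0603). Over all settings, values of single genes and counts over all genes were compared with the main fit. Of these, 5078 were taken as the same, which allows a change of sign where neither fit passed the threshold. A call was lost for 250 values, gained in either direction for 124 and turned for 5. Of the counts over all genes, 9 moved. The 22 members not tested in fresh bone had at most 26 counts, where depth does not allow a comparison.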
